A study of Rattus norvegicus with 12 samples.

Results

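The CCAAT/enhancer binding proteins (C/EBPs) were examined in mixed glial cultures from newborn rat brain exposed to cytokine mixtures. All probe sets on an Affymetrix rat oligonucleotide array whose annotated gene symbol is Cebpa, Cebpb, Cebpd, Cebpg or Ddit3 were taken, which gave 9 probe sets for 5 genes out of 8799 probe sets and 4736 named genes in all. These genes were picked with their differences from control already in view, so those differences are given below as a description and without a test. In each of 3 experiments, separate cultures received the Th1 mixture, the monocyte/macrophage (M/M) mixture or the Th2 mixture, each cytokine at 10 ng/ml for 6 hours, or additional medium as control, and the defined medium of all 4 groups contained 2% serum. According to the sample labels, Th1 held IL-2, interferon-gamma, TNF-alpha and G-CSF, M/M held IL-1 alpha, IL-1 beta, IL-12p40 and TNF-alpha, and Th2 held porcine TGF-beta 1, G-CSF, IL-5 and IL-10. The methods add IL-6 to M/M and IL-4 to Th2. Microglia were partly removed by adherence to plastic before plating, and each of the 12 arrays measured 1 culture, a number that limits the precision.

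C/EBPs are transcription factors that bind DNA as pairs through a basic region and a leucine zipper, and any member can pair with another. Cebpb and Cebpd are known as early-response members, which inflammatory cytokines induce in astrocytes, microglia and liver and which drive acute phase and cytokine genes. Cebpa is best known for halting growth and promoting maturation of fat, liver and myeloid cells. Cebpg has no strong activating domain of its own, and Ddit3, also called CHOP or Gadd153, is the stress-induced member whose altered basic region keeps its pairs from most C/EBP sites.

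RefSeq promoter windows on build GRCr8 were found for 4 of the 5 genes, and the 250 bases before the annotated start are shown for Cebpb, Cebpa and Ddit3, a member above control with every mixture and a pair with smaller M/M differences. Capitals mark TGACGC (a sequence like the cyclic AMP response element), TGANTCA (the AP-1 site), CCAAT and TATAAA, on either strand and with no overlap between them here.
Cebpb, chr3:176816755-176817004, plus strand: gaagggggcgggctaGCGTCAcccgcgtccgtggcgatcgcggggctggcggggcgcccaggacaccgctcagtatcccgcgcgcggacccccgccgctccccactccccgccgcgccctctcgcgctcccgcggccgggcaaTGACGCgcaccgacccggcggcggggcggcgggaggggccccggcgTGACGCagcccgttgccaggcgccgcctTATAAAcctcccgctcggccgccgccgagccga
Cebpa, chr1:96896334-96896583, plus strand: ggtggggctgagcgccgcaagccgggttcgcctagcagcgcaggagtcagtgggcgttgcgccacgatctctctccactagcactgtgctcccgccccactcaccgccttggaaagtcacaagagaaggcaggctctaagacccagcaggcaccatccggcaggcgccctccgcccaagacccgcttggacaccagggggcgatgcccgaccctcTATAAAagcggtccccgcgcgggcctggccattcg
Ddit3, chr7:65001445-65001694, plus strand: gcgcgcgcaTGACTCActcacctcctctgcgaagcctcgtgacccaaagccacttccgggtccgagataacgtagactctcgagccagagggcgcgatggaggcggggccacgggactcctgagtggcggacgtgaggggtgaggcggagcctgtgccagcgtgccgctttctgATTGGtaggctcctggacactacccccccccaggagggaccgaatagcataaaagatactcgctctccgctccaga
The Cebpb window holds 3 matches to TGACGC, which begin 235, 107 and 61 bases before the start. Among 33469 windows of this length in the same table, 5.7% hold that motif at least once. Its shorter form TGACG, which lies within it, is in 18.2% of windows. The Cebpb window is 80% G or C, against 63.6% to 70.4% for Cebpa, Cebpg and Ddit3, and these shares of windows are not matched for that. The Cebpa, Cebpg and Ddit3 windows hold none of the longer form. The TATA box letters TATAAA begin 33 bases before the start in Cebpb and 35 in Cebpa (12.9% of windows). The Ddit3 window has 1 TGANTCA (6.34% of windows) and 1 CCAAT, and that of Cebpg has 2 CCAAT (34% of windows). TTGCGNAA, the letters of a C/EBP site (0.729% of windows), the full cyclic AMP response element with the letters TGACGTCA (1.59%), the NF-kappaB motif (4.36%) and TTCNNNGAA, the letters of a STAT site (7.67%), have no match in any of the 4 windows. These letters are a description of the sequence and do not show that a factor binds. Cebpa and Cebpg are neighbours on chromosome 1, with 0 annotated protein-coding genes between them.

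The response genes did not follow the labels in experiment 3. Over 16 interferon-gamma response genes, the median log2 difference from control on the arrays labelled Th1 was 3.14 in experiment 1, 3.43 in experiment 2 and -0.53 in experiment 3, where 3 of the 16 genes lay above control. On the arrays labelled M/M it was 0.76, 1.33 and 3.88. Cxcl10, an interferon-induced chemokine gene, had signals of 3640 and 1874 on the Th1 arrays of experiments 1 and 2 and 23.8 on that of experiment 3, whereas the array labelled M/M had 5626 in experiment 3. Over 13 IL-1 and TNF response genes the medians were 2.38, 2.43 and -0.06 for arrays labelled Th1, 2.99, 2.84 and 2.97 for M/M, and 0.21, 0.77 and 2.54 for Th2. The arrays were kept in the groups their labels give, those of experiment 3 are called by their label throughout, and results are also given without them.

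**Figure D1:**
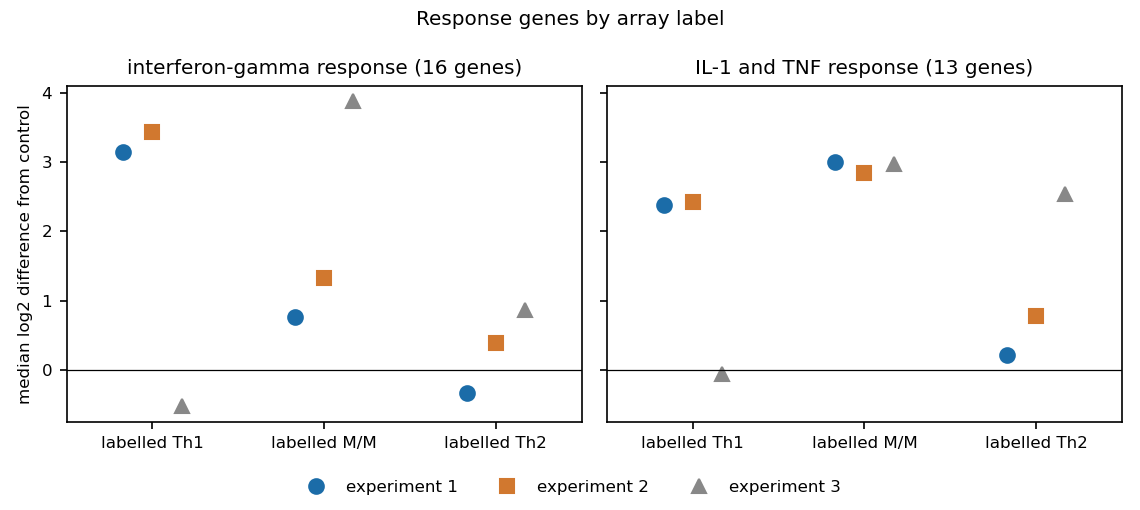
Median log2 difference from the control of the same experiment (vertical axis) for 16 interferon-gamma response genes (left) and 13 IL-1 and TNF response genes (right), by the label of the array, with a point for each experiment. In experiment 3 the array labelled Th1 sits at -0.53 and -0.06, below the Th1 arrays of experiments 1 and 2 at 3.14 and 3.43 and at 2.38 and 2.43.

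Median signals lay between 57.0 and 60.9 on the 4 arrays of experiment 1. In experiment 2 they were 61.0 for Th1, 57.9 for M/M, 56.1 for Th2 and 38.4 in the control, and in experiment 3 they were 24.5, 42.2 and 29.1 and, in the control, 26.9. Over all 8740 probe sets that were tested, the median log2 difference from control was 0.14 (Th1), 0.33 (M/M) and 0.19 (Th2), or 0.21, 0.18 and 0.19 without experiment 3, and centred values below are those after each array was set to the same median. Marker lists of 7 cell types were also read. Gfap, the defining astrocyte marker, has no named probe set, and 9 other astrocyte genes summed to 15600 to 20220 with Th1, 17420 to 21450 with M/M, 15450 to 20900 with Th2 and 12850 to 22000 in controls. The summed signal of 10 microglial genes was 7045 to 13050 with Th1, 9078 to 13200 with M/M, 8580 to 13170 with Th2 and 5576 to 12550 in controls, and that of 4 endothelial genes was 36 to 125, 103 to 122, 74.3 to 143 and 92.1 to 235. These ranges overlap between groups. Within experiments the microglial sum was above its own control in 9 of 9 comparisons, by ratios of 1.04, 1.26 and 1.26 with Th1, 1.05, 1.10 and 2.00 with M/M and 1.05, 1.09 and 1.54 with Th2 in experiments 1, 2 and 3. The sum of 8 neuronal genes was also above in 9 of 9, and the other 5 lists in 2 to 6 of 9. The sums are of signals that were not centred, so the differences in array median given above enter these ratios. With limma 0 of the markers of the 7 lists passed the test, and their part in the results below was not tested. In bulk RNA, fewer cells of a type and less RNA per cell cannot be told apart.

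The highest means above control with each mixture belonged to Cebpb and Cebpd probe sets, and with M/M cytokines all 5 of their probe sets were above control in 3 of 3 experiments. In all 3 experiments 3 of the 9 probe sets were more than 2-fold above control with M/M cytokines (1.66% of all probe sets), 0 with Th1 (0.343%) and 0 with Th2 (0.4%). With M/M cytokines both Cebpb probe sets and a pair of the 3 Cebpd probe sets were more than 2-fold above control in experiments 1 and 2, and over all probe sets 2.54% were. With Th1 cytokines 1 of the 9 probe sets, a Cebpb one, was so (2.43% of all probe sets), and with Th2 cytokines 0 of 9 (1.67%). With M/M cytokines the Cebpa, Cebpg and Ddit3 means, at most 0.59 on the log2 scale, were below those of these 5 probe sets, but without experiment 3 Cebpg, at 0.61, was level with Cebpd rc_AA946292_at, at 0.60. With Th1 and Th2 cytokines Ddit3, at 0.52 and 0.64, was above that Cebpd probe set, at 0.21 and 0.38, and without experiment 3 its Th2 mean of 0.97 was also above that of Cebpb at S77528cds_s_at, 0.52.

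Cebpb was read by the probe sets X60769mRNA_at and S77528cds_s_at. At X60769mRNA_at, in experiments 1, 2 and 3, the signal was 502, 428 and 272 with Th1 cytokines, 647, 400.0 and 743 with M/M cytokines, 265, 166 and 616 with Th2 cytokines and 191, 52.9 and 146 in control cultures. Every Th1 and M/M array lay above every control array, whereas the Th2 array of experiment 2 lay below the control of experiment 1. The log2 differences from control were 1.39, 3.02 and 0.89 for Th1, with a mean of 1.77 (SD 1.11, n = 3). For M/M they were 1.76, 2.92 and 2.34, a mean of 2.34 (SD 0.58, n = 3). For Th2 they were 0.47, 1.65 and 2.07, a mean of 1.40 (SD 0.83, n = 3). The Th1 and M/M differences were highest in experiment 2, whose control had the lowest signal of the 3. Experiment 1, where array medians were alike, gave folds of 2.62, 3.38 and 1.38 over control for Th1, M/M and Th2. Without experiment 3 the means were 2.20, 2.34 and 1.06, and with arrays centred they were 1.61, 1.91 and 1.19.

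The other Cebpb probe set, S77528cds_s_at, carries the suffix that Affymetrix gives to probes matching several transcripts. Its signal was 158, 222 and 25 with Th1 cytokines, 365, 283 and 102 with M/M cytokines, 135, 100.4 and 67.5 with Th2 cytokines and 79.2, 83.2 and 4 in control cultures. All 3 M/M arrays lay above all 3 control arrays, and the Th1 and Th2 arrays overlapped with control through their experiment 3 arrays, which lay below the controls of experiments 1 and 2. The log2 differences were 0.99, 1.42 and 2.64 for Th1, 2.20, 1.76 and 4.67 for M/M and 0.77, 0.27 and 4.08 for Th2. The differences of experiment 3 rest on a control signal of 4. Without that experiment the mean was 1.2 (Th1), 1.98 (M/M) and 0.52 (Th2), each with an SE of 0.27, and in both remaining experiments M/M was highest, Th1 next and Th2 nearest to control.

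**Figure D2:**
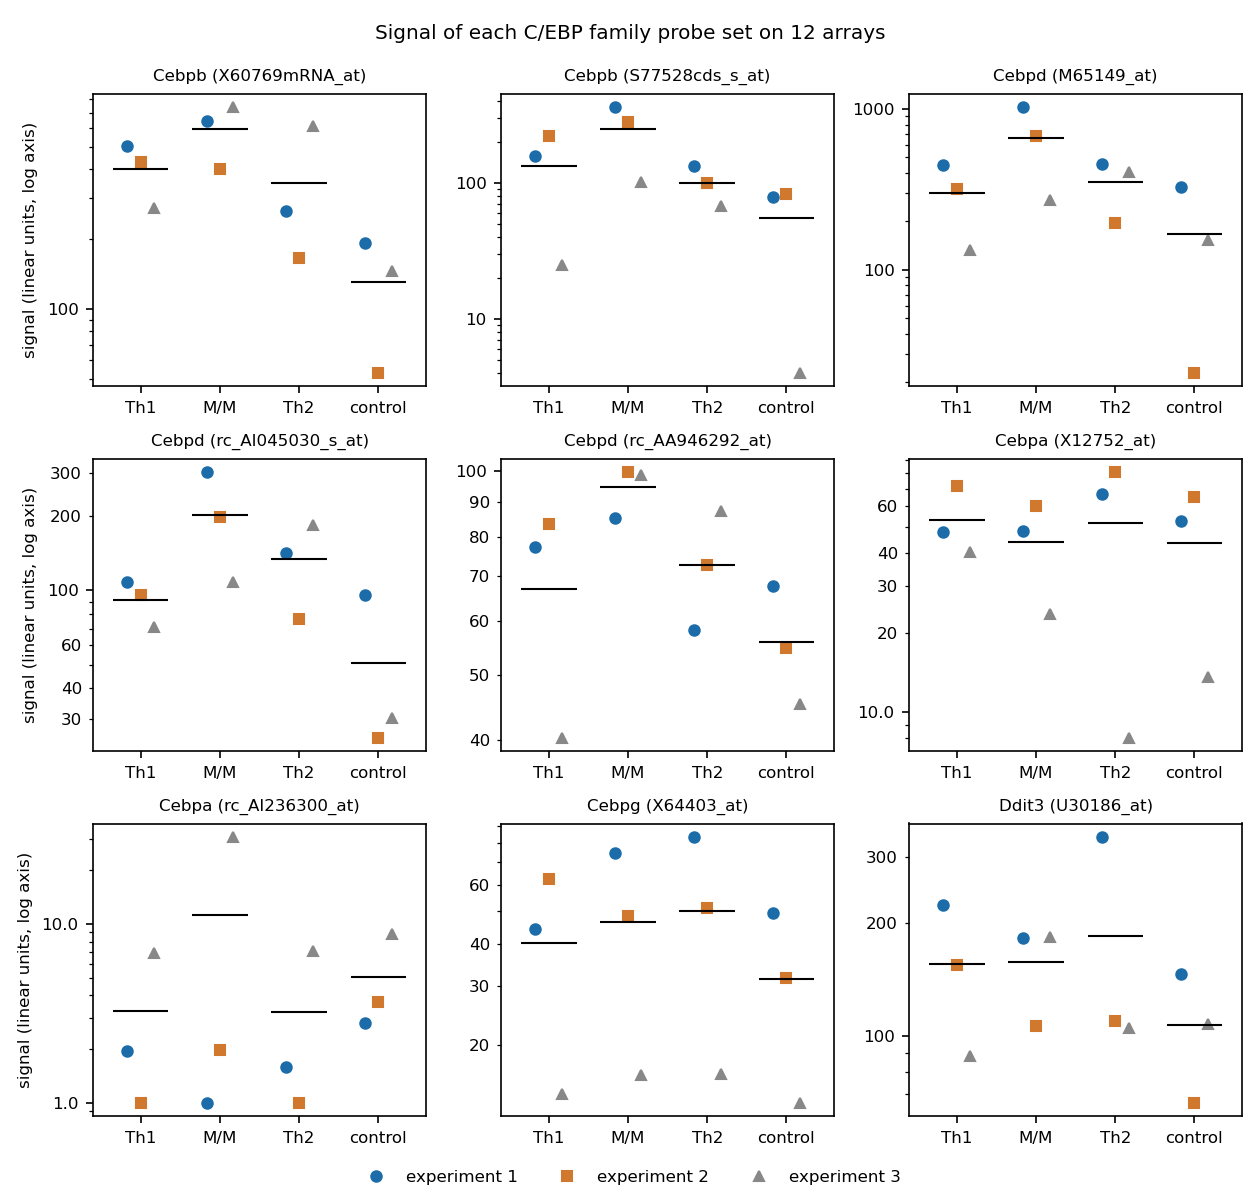
Signal of each of the 9 probe sets (vertical axis, linear units on a log axis) in the Th1, M/M, Th2 and control groups, with a point for each experiment and a bar at the mean. For Cebpb (X60769mRNA_at) the M/M arrays lie between 400.0 and 743 and the control arrays between 52.9 and 191.

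Cebpd had 3 probe sets. At M65149_at the signal was 447, 317 and 132 with Th1 cytokines, 1031, 681 and 273 with M/M cytokines, 452, 196 and 408 with Th2 cytokines and 326, 22.8 and 153 in control cultures. M/M arrays were above the control of their own experiment each time, but the groups overlapped, and the control of experiment 2 was far below the other controls. The log2 differences for M/M were uneven, 1.66, 4.90 and 0.83, with a mean of 2.46 (SD 2.15, n = 3). For Th1 they were 0.45, 3.80 and -0.22, a mean of 1.35 (SD 2.15, n = 3). For Th2 they were 0.47, 3.11 and 1.41, a mean of 1.66 (SD 1.34, n = 3). Experiment 2 gave the highest difference in every mixture. Without experiment 3 the means were 2.13 (Th1), 3.28 (M/M) and 1.79 (Th2), and with arrays centred 1.19, 2.04 and 1.45. Without replicate 2, which holds that control, the mean was 0.12 (Th1), 1.25 (M/M) and 0.94 (Th2), and without control replicate 2 alone it was 0.29, 1.41 and 0.61.

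The second Cebpd probe set, rc_AI045030_s_at, has the same suffix for several transcripts and had signals of 108, 96.2 and 70.7 with Th1 cytokines, 303, 198 and 108 with M/M cytokines, 142, 76.5 and 185 with Th2 cytokines and 96.2, 25.1 and 30.4 in control cultures. Only M/M did not overlap with control among the 3 mixtures at this probe set, and the control of experiment 1 was the bright one. The M/M differences were 1.66, 2.98 and 1.83, a mean of 2.16 on the log2 scale (SD 0.72, n = 3), or 2.32 without experiment 3 and 1.73 with arrays centred. The Th1 and Th2 means were 1.11 and 1.59 (SD 0.89 and 1.02, n = 3 each), or 1.05 and 1.09 without experiment 3. The third probe set, rc_AA946292_at, varied little over all 12 arrays, between 40.3 and 99.8. With Th1 cytokines it read 77.2, 83.7 and 40.3 and with Th2 cytokines 58.2, 72.7 and 87.3. Its M/M signals of 85.3, 99.8 and 98.9 were nevertheless above the control signals of 67.7, 54.7 and 45.3 without overlap. Its mean log2 difference for M/M was 0.78 (SD 0.40, n = 3), 0.60 without experiment 3 and 0.35 with arrays centred. The Th1 and Th2 means were 0.21 (SD 0.39) and 0.38 (SD 0.58), or 0.40 and 0.10 without experiment 3. The Cebpd probe sets thus differed from each other by more than 1 in their M/M means on the log2 scale.

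The Cebpa differences from control had both signs. At X12752_at, the brighter of its probe sets, the signal was 48.0, 71.9 and 40.5 with Th1 cytokines, 48.5, 60.4 and 23.5 with M/M cytokines, 67.1, 81.1 and 8 with Th2 cytokines and 52.9, 65.0 and 13.6 in control cultures. In experiments 1 and 2 every treated array was within 1.27-fold of its control, and experiment 3 gave differences of 1.57, 0.79 and -0.77 on the log2 scale for Th1, M/M and Th2. Over 3 experiments the means were 0.53, 0.19 and -0.03 (SE 0.47 each). Without experiment 3 the means were 0.00, -0.11 and 0.33 (SE 0.23 each). The probe set rc_AI236300_at lay between 1 and 8.8 on 11 of the arrays and at 30.8 on the array labelled M/M of experiment 3, and 1 is a value at which the dChip signals of experiments 1 and 2 pile up. Its Th1 and Th2 arrays were below their controls in 3 of 3 experiments, as were 5.72% and 6.46% of all probe sets. For M/M it lay below control in experiments 1 and 2 and above it in experiment 3. At these levels the log2 size depends on the scale, with means for Th1, M/M and Th2 of -0.91, -0.19 and -1.0, against -0.13, 0.21 and -0.14 with an offset of 16, so no fold is read from it. With M/M cytokines 0 of the 9 probe sets were below control in all 3 experiments, against 3.66% of all probe sets.

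Cebpg was read by 1 probe set, X64403_at. Its signal was 44.3, 62.3 and 14.3 with Th1 cytokines, 74.5, 48.5 and 16.3 with M/M cytokines, 83.3, 50.9 and 16.4 with Th2 cytokines and 49.5, 31.5 and 13.4 in control cultures. The spread between experiments was wider than that between groups, and every mixture overlapped with control. The mean log2 differences were 0.30 (SD 0.60) for Th1, 0.50 (SD 0.19) for M/M and 0.58 (SD 0.25) for Th2, n = 3 each. Without experiment 3 they were 0.41, 0.61 and 0.72. With arrays centred they were 0.14, 0.07 and 0.37.

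Ddit3 had signals of 223, 155 and 88.2 with Th1 cytokines, 182, 106 and 184 with M/M cytokines, 340.0, 110.0 and 105 with Th2 cytokines and 146, 66.1 and 107 in control cultures at its only probe set, U30186_at. In experiments 1 and 2 all treated arrays were above their control, and in experiment 3 those labelled Th1 and Th2 were slightly below it. The means were 0.52 (SD 0.76), 0.59 (SD 0.25) and 0.64 (SD 0.63) on the log2 scale for Th1, M/M and Th2. Without experiment 3 they were 0.92, 0.50 and 0.97 (SE 0.30 each), so in those experiments the order of M/M and Th1 was the reverse of that seen for Cebpb at S77528cds_s_at. The difference between M/M and Th1 was -0.29 in experiment 1 and -0.54 in experiment 2. With arrays centred the means over 3 experiments were 0.36, 0.17 and 0.43.

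**Figure D3:**
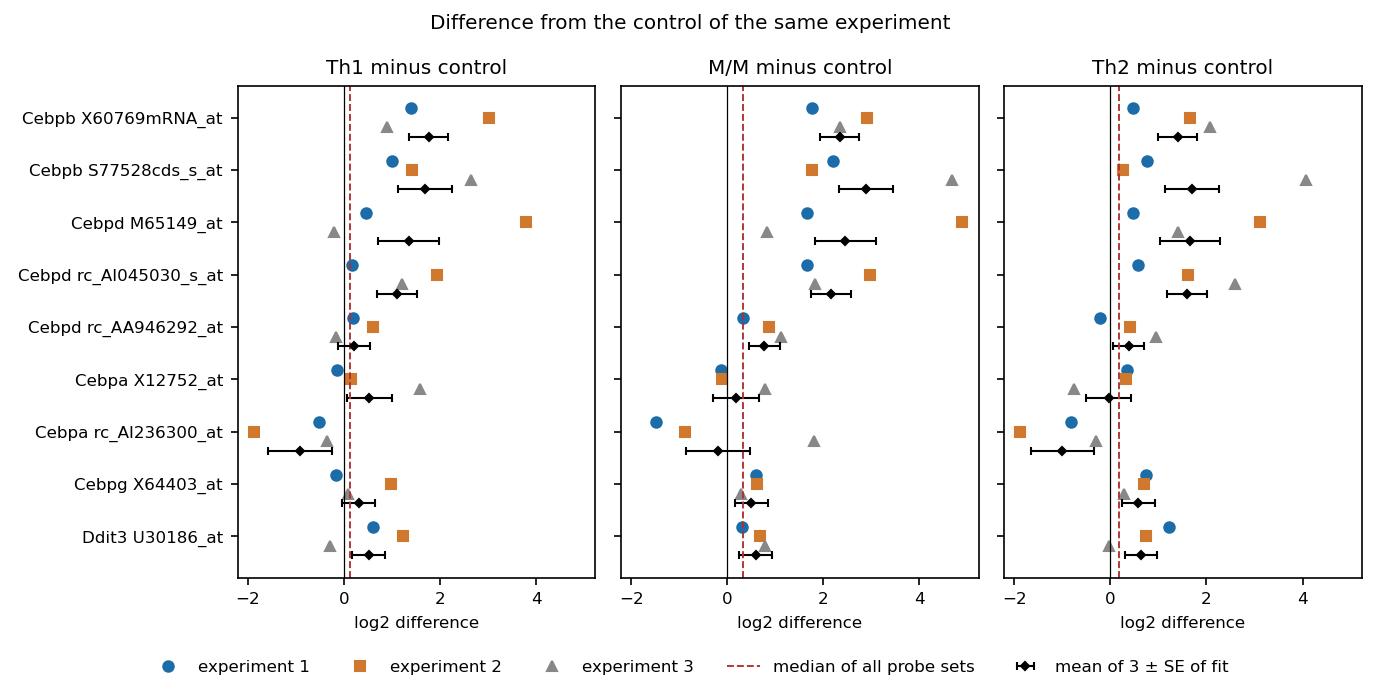
Log2 difference of each probe set from the control of the same experiment (horizontal axis) for Th1, M/M and Th2 cytokines, with a point for each experiment, a diamond and bar for the mean and SE of the limma fit, and a dashed line for the median of all probe sets (0.14, 0.33 and 0.19). The Cebpb means with M/M lie at 2.34 and 2.88, and the Cebpa, Cebpg and Ddit3 means with M/M lie between -0.19 and 0.59.

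The mixtures were also set against each other. At Cebpb S77528cds_s_at, M/M minus Th1 was 1.21, 0.35 and 2.03 in experiments 1, 2 and 3, and M/M minus Th2 was 1.44, 1.49 and 0.60 on the log2 scale. At X60769mRNA_at, M/M minus Th1 was 0.37, -0.10 and 1.45, with a mean of 0.13 (SE 0.38) without experiment 3. M/M minus Th2 at this probe set was 1.29, 1.27 and 0.27. For Cebpd, M/M minus Th1 was 1.21, 1.10 and 1.05 at M65149_at and 1.49, 1.04 and 0.61 at rc_AI045030_s_at. The array labelled M/M was higher in 3 of 3 experiments at both. Without experiment 3, whose response genes did not follow the labels, the means were 1.15 (SE 0.79) and 1.27 (SE 0.42). M/M minus Th2 was above 1 at both probe sets in experiments 1 and 2 and was -0.58 and -0.77 for the arrays so labelled in experiment 3. Cebpg differed little between M/M and Th2, with M/M minus Th2 at -0.16, -0.07 and -0.01. Its other differences were wider and had both signs. M/M minus Th1 was 0.75, -0.36 and 0.19, and Th1 minus Th2 was -0.91, 0.29 and -0.20. These differences are made of the values that the genes were picked on, and they were not tested.

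Over the 9 probe sets, the median log2 difference from control was 0.53 (Th1), 0.78 (M/M) and 0.64 (Th2), beside 0.14, 0.33 and 0.19 over all probe sets. Without experiment 3 it was 0.92, 0.61 and 0.72. With M/M cytokines 7 of the 9 were above control in 3 of 3 experiments, as were 32% of all probe sets. For Th1 and Th2 these counts were 3 of 9 and 5 of 9 (14% and 25% of all probe sets). All M/M arrays lay above all control arrays at 4 of the 9 (7.48% of all probe sets), all Th1 arrays at 1 (1.54%) and all Th2 arrays at 0 (2.77%). As a count and not as a test of the members, 1 of the 9, Cebpb X60769mRNA_at, was among the 0.263% of all probe sets that limma called higher with M/M cytokines. With Th1 and Th2 cytokines 0 members were called, and among all probe sets 0 and 0.0114% were called higher. Over 24 alternative settings the count of members ranged from 0 to 3 for M/M and 0 to 1 for Th1 and was 0 for Th2. For Th1 it was 1 without Th1 replicate 3, where 82 of 8740 probe sets were called. For M/M it was 0 with no replicate block, centring, quantile normalization or no variance trend. It was also 0 without replicate 2, M/M replicate 1, 2 or 3, control replicate 2 or 3, or Th1 replicate 1. Of all probe sets, 13 were called for M/M without Th1 replicate 1 and 0 in the other settings just named. It was 3 without the dimmest 25 percent, where 33 of 6555 probe sets were called. It was 3 as well without replicate 1, control replicate 1, Th1 replicate 2 or 3, or Th2 replicate 3, and by the screening criteria of the methods. In these settings 70, 66, 77, 183, 72 and 291 of 8740 probe sets were called for M/M, in that order. By the screening criteria the count of members was also 3 for Th1 and for Th2, beside 193 and 204 probe sets. Without experiment 3 the count of members was 0 in every mixture. Of all probe sets, 0.641% were then called higher and 0.0229% lower with Th1 cytokines. With M/M cytokines 0.389% were called higher, and the Th2 mixture gave 0 calls. When arrays were also centred, the count of members became 1 with Th1 and 3 with M/M cytokines. In that setting 120 of 8740 probe sets were called with Th1 cytokines. M/M cytokines also gave 120 calls, whereas the Th2 mixture gave 0. The same contrasts picked the members, so nothing is read from these shares.

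Some genes shared the course of a member over the 12 arrays once the mean of each experiment was subtracted. Closest to Cebpb X60769mRNA_at were Gch1, for the first enzyme of tetrahydrobiopterin synthesis, with Pearson r of 0.98, Cd82, a tetraspanin gene, with 0.979, Ccl2, a monocyte chemokine gene, at X17053mRNA_s_at with 0.978, Abcb1b, a drug efflux pump gene, with 0.978, and Cd14, for the lipopolysaccharide coreceptor, with 0.976. Over the 8 arrays of experiments 1 and 2 their r lay between 0.966 and 0.993. Closest to Cebpd M65149_at were Slc16a1, a lactate transporter gene, with 0.979, Marcks, a substrate of protein kinase C, with 0.971, Mgat2, a Golgi glycosyltransferase gene, with 0.96, Sh2b3, a signalling adaptor gene, with 0.958, and Plpp3, a lipid phosphatase gene, with 0.948. Cebpd M65149_at correlated at 0.868 with Cebpb X60769mRNA_at and at 0.579 with Cebpb S77528cds_s_at. For Ddit3 the closest were Serpina3n, an acute phase protease inhibitor gene, with 0.922, Sox11 with 0.885, Got1 with 0.874, P2rx4 with 0.868 and Car2 with 0.864, and its r was 0.562 with Cebpb X60769mRNA_at and 0.387 with S77528cds_s_at. These are the highest values among named probe sets brighter than the median, on arrays that share their experiments and control cultures, and they are given as a description.

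Genes around the C/EBPs were then counted from lists of their bZIP partners, targets, stress relatives and signal inputs, without the members. Of 147 listed genes 112 were measured, each by its brightest probe set. With M/M cytokines 5 rose and 0 fell by limma, and with Th1 and Th2 cytokines 0 passed. Without adjustment 16 (Th1), 44 (M/M) and 20 (Th2) of the 112 had p under 0.05. Over all probe sets 5.56%, 15.9% and 6.75% had, and these shares stand beside the counts per list below as a description. The lists were chosen with earlier results of these data known, so nothing is read from a higher count. Without experiment 3, 11 passed with M/M, 8 with Th1 and 0 with Th2. The M/M count was 10 without replicate 1 and 0 without replicate 2, without M/M replicate 1, 2 or 3, and without control replicate 2 or 3. For Th1 it was 12 without Th1 replicate 3, and for Th2 it was 1 without replicate 2 and 2 without Th2 replicate 2.

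Among 16 bZIP genes, whose products pair with C/EBPs or bind related sites, 1 passed with M/M cytokines, Junb of the AP-1 family. Its signal was 563, 380.4 and 820 with M/M and 168, 43.0 and 127 in controls, with no overlap, a log2 difference of 2.53 (SE 0.37, adjusted p = 0.0251), and adjusted p = 0.118 without experiment 3. Nfe2l2, a regulator of antioxidant genes, had 2.04 (adjusted p = 0.0941), or 1.92 without experiment 3. The AP-1 gene Fosl1 had 1.97 (adjusted p = 0.139) and the stress factor gene Atf3 1.69 (adjusted p = 0.122), neither past the threshold. Without experiment 3 they had 2.06 and 1.12 and did not pass. The median of the list was 0.37 (Th1), 0.76 (M/M) and 0.26 (Th2), or 0.29, 0.26 and 0.20 without experiment 3.

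The 32 inflammatory and acute phase genes, many of them described as C/EBP targets, held the other 4 calls with M/M cytokines, all higher. Ccl2 had signals of 5496, 4393 and 6309 with M/M and 898, 583 and 987 in controls, which do not overlap (at X17053cds_s_at, log2 difference 2.73, SE 0.35, adjusted p = 0.015). Sod2, for mitochondrial superoxide dismutase, had 2053, 1122 and 595 with M/M and 326, 229 and 98.8 in controls, also without overlap (2.51, SE 0.40, adjusted p = 0.0251). Cd14 and Timp1, an inhibitor of matrix metalloproteinases, had 2.54 (SE 0.47) and 1.23 (SE 0.23), with adjusted p = 0.0486 for each. Without experiment 3 these 4 genes still passed, with adjusted p between 0.00284 and 0.0367. Il1b, for IL-1 beta, had a difference of 4.66 (adjusted p = 0.113), and without experiment 3 it passed, at 5.05 (adjusted p = 0.00268). Its signals in that experiment were 110.3 on the array labelled Th1, 791 on that labelled M/M, 2145 on that labelled Th2 and 53.4 in the control. Il6, Cxcl2 and Il1a had 3.79, 3.77 and 3.21 and did not pass (adjusted p = 0.0681, 0.22 and 0.191). Control signals in experiments 1, 2 and 3 were 6.45, 9.87 and 2 for Il6 and 50.6, 6.25 and 31.2 for Cxcl2. The log2 sizes that rest on the lowest of these are uncertain. Without experiment 3 Il6 had 3.69 (adjusted p = 0.278), while Cxcl2, a neutrophil chemokine gene, passed at 5.02 (adjusted p = 0.0221) and Il1a at 3.88 (adjusted p = 0.0111). The adhesion molecule gene Icam1 and Lcn2, for lipocalin 2, passed as well, at 2.53 and 2.69 (adjusted p = 0.0221 and 0.0111), which makes 9 for M/M. For Th1 cytokines 5 of the list passed without experiment 3, namely Il1b at 4.29, Icam1 at 2.62, Ccl2 at 2.40, Cd14 at 2.38 and Sod2 at 2.04 (adjusted p between 0.00634 and 0.0335). The list's median was 0.49 (Th1), 1.35 (M/M) and 0.71 (Th2), 0.70, 1.21 and 0.39 without experiment 3, and 0.33, 0.92 and 0.50 with arrays centred.

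**Figure D4:**
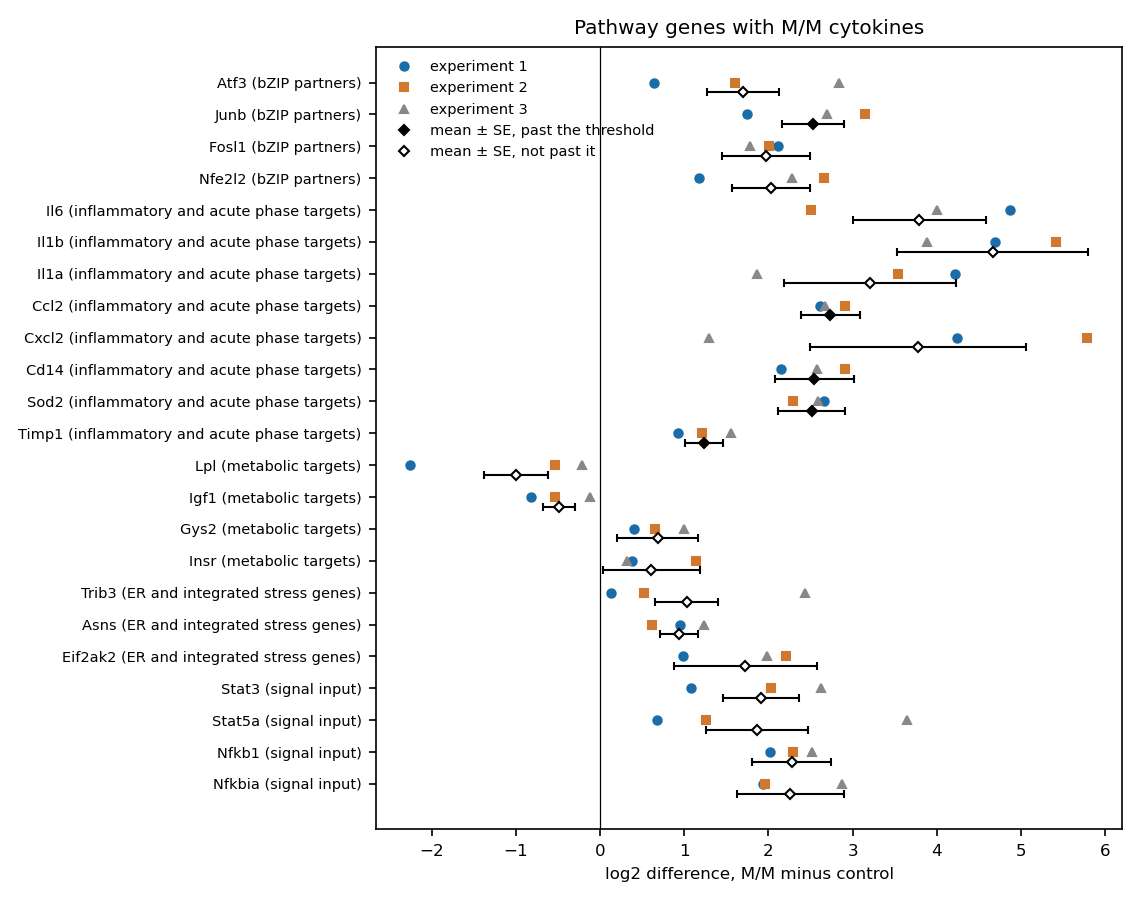
Log2 difference between M/M and control (horizontal axis) for the named pathway genes, with a point for each experiment and a diamond with bar for the mean and SE of the limma fit, filled where the gene passed the threshold. Filled diamonds belong to Junb, Ccl2, Cd14, Sod2 and Timp1, between 1.23 and 2.73.

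Of 18 metabolic genes known as C/EBP targets in liver and fat, 0 passed in any mixture, although without adjustment 2 (Th1), 2 (M/M) and 1 (Th2) had p under 0.05. Lpl, for lipoprotein lipase, had M/M differences of -2.26, -0.53 and -0.22 in experiments 1, 2 and 3 and a mean of -1.0 (adjusted p = 0.253). Igf1 had -0.49 (adjusted p = 0.263), Gys2, for liver glycogen synthase, 0.68 (adjusted p = 0.488), and Insr, for the insulin receptor, 0.61 (adjusted p = 0.613). In experiment 3 Gys2 read only 2.6 with M/M and 1.3 in the control, so its log2 size there is uncertain. Without experiment 3 these 4 genes had -1.39, -0.68, 0.53 and 0.76 and did not pass. The list's median for M/M was 0.24, beside 0.33 over all probe sets, and 0.15 beside 0.18 without experiment 3.

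Ddit3 is a late step of the unfolded protein and integrated stress responses, and 23 genes of these were measured. With limma 0 of them passed in any mixture, although without adjustment 2 (Th1), 9 (M/M) and 3 (Th2) had p under 0.05. The list's median was 0.24, 0.46 and 0.19, and without experiment 3 it was 0.23, 0.27 and 0.09. With arrays centred it was 0.08, 0.03 and -0.02. Asns, for asparagine synthetase, was above control by 0.95, 0.61 and 1.24 with M/M in experiments 1, 2 and 3 (mean 0.93, adjusted p = 0.113, and 0.78 without experiment 3). Trib3, a pseudokinase gene that Ddit3 and Atf4 induce, had 0.13, 0.52 and 2.43 (mean 1.03, adjusted p = 0.244), and its mean was 0.32 without experiment 3. Eif2ak2, for the interferon-induced kinase PKR, had a mean of 1.72 with M/M (adjusted p = 0.337, and 1.59 without experiment 3), and with Th1 2.38, 3.57 and, on the array so labelled in experiment 3, -1.93. Without experiment 3 Eif2ak2 passed for Th1, at 2.97 (adjusted p = 0.0371), the 1 call of this list.

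The 27 genes of signal input to the C/EBPs, from cytokine receptors to STAT and NF-kappaB factors, had 0 calls in any mixture, although without adjustment 2 (Th1), 10 (M/M) and 6 (Th2) had p under 0.05. Nfkb1, for the p50 subunit of NF-kappaB, and Nfkbia, for its inhibitor, had differences of 2.27 and 2.26 with M/M (adjusted p = 0.0676 and 0.152). Without experiment 3 both passed with M/M, at 2.15 and 1.95 (adjusted p = 0.0221 and 0.0078), and with Th1, at 2.01 and 1.96 (adjusted p = 0.0198 and 0.00677). Stat3, which carries the IL-6 signal to the Cebpb and Cebpd genes, had 1.91 with M/M (adjusted p = 0.108), and Stat5a had 1.86 (adjusted p = 0.202), against 1.55 and 0.97 without experiment 3. The list's median was 0.37 (Th1), 0.57 (M/M) and 0.41 (Th2), or 0.37, 0.51 and 0.45 without experiment 3.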

How the data were processed

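Total RNA of 12 cultures was hybridised to Affymetrix rat arrays, 1 per culture. The intensity values deposited by the authors are linear probe-set signals that they calculated with dChip. The dChip settings and any scaling between arrays are not given in the sources used here. The low end of the values differed between experiments. Arrays of experiment 3 had 172 to 409 values below 1, and those of experiments 1 and 2 had 0 to 3. Values equal to 1 numbered 31 to 63 per array in experiment 3 and 202 to 251 in experiments 1 and 2. Low signals, and log2 differences that rest on them, may therefore not be comparable between experiments. Whether experiment 3 was processed in another way was not tested. Values below 0.1 were set to 0.1, log2 was taken and arrays were not rescaled. The 59 control probe sets were left out and 8740 were tested; 7006 carry 1 gene symbol in the platform annotation, 308 several and 1426 none.

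Each mixture was compared with control in limma 3.58.1 under R 4.3.3. The model held a term for each experiment (the replicate block), and the prior variance depended on signal. Adjusted p is that of Benjamini-Hochberg across the 8740 probe sets and was called under 0.05. The block comes from a code that the 4 array titles of an experiment share. Deviations from group means correlated at 0.439 to 0.708 within an experiment and at most 0.357 between experiments and groups. The fit was tested on simulated data.

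Members and gene lists were chosen with earlier results of these data known. Text names every member, each pathway gene past the threshold, and up to 4 per list with the largest M/M difference of the same sign in 3 experiments. Icam1 and Lcn2 were named after their values were seen. For Cebpb, Cebpd and Ddit3 it names the 5 most similar genes. Alternatives were no or a random block, centring, quantile normalization, a floor of 1, an offset of 16, leaving out the dimmest 25 percent, no variance trend, the screening criteria of the methods (a fold above 2 with p under 0.2 in an analysis of variance), and leaving out replicates singly. Experiment 3 left out with centring was added after the data were seen. Promoter windows are from RefSeq. No genome or protein sequence was used here.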

Additional observations from a re-analysis of the deposited data

How the results depend on the processing

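The probe sets called for M/M cytokines, 23 by limma, became 0 with no replicate block, with arrays centred, with quantile normalization and with no variance trend, 14 with an offset of 16 and 291 by the screening criteria of the methods. The 5 listed pathway genes called for M/M became 0 in the same 4 settings and 3 with a floor of 1 or an offset of 16. For Th2 cytokines the 1 probe set called became 0 in those 4 settings and 204 by the screening criteria, and for Th1 cytokines 0 became 193 by them. With replicates left out, the counts of probe sets ranged from 0 to 82 for Th1, 0 to 70 for M/M and 0 to 3 for Th2, and those of listed genes from 0 to 12, 0 to 11 and 0 to 2. Arrays of the other mixtures share the spread, and without Th1 replicate 3 there were 183 calls for M/M. With experiment 3 left out and arrays centred, added after the data were seen, the probe sets called were 120 for Th1 (100 higher, 20 lower), 120 for M/M (84 higher, 36 lower) and 0 for Th2, with 17, 18 and 0 listed genes. The cause of these changes was not tested. Of 483 values of member probe sets under an alternative, 14 moved by more than the SD between experiments. This count is not a measure of stability. The choice of block, the variance trend and leaving out dim probe sets cannot change these means. Leaving out a whole experiment cannot move them by as much as that SD. With arrays centred the M/M values of Cebpd rc_AA946292_at, Ddit3 and Cebpg became 0.35, 0.17 and 0.07, and Cebpb and the other Cebpd probe sets kept their sign in every alternative for every mixture. Of 1239 values for the named pathway genes, 57 lost and 50 gained their call, and 0 called values changed sign. Only a called gene can lose its call, so all 57 losses fell on the 5 genes called for M/M. These 5 calls were all lost in the 4 settings named above. They were also all lost without replicate 2, without M/M replicate 1, 2 or 3, and without control replicate 2 or 3. Detection calls are not part of the table, so the limit of detection is unknown.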

Other observations

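A further member of the family, Cebpe, which is known for granulocyte maturation, has 1 probe set on the array. In experiments 1 to 3 its signal read 1.91, 1 and 7 with Th1, 1, 3.32 and 8.1 with M/M cytokines, 1.02, 1.35 and 5 with Th2 cytokines and 1, 1.35 and 5.9 in control cultures. No fold is given at these levels, where many signals equal 1.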
